A study of Mus musculus with 6 samples.

Results

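Chromatin that is accessible to the transposase Tn5 is found mostly at promoters and enhancers, and only a small share of it lies in the protein-coding part of genes. Open sites within coding exons were taken from the ATAC-seq peak lists of cultured mouse preadipocytes, the cells that differentiate into adipocytes. The peaks of all 6 libraries on chromosomes 1 to 19 were merged, which gave 262759 regions, and 174449 were kept because at least 2 libraries listed a summit there with a −log10 q above 2. A kept region was counted as a coding-exon site when its best summit, the one with the highest −log10 p over all libraries, lay in a coding sequence (mm10, GENCODE M21, basic set) and more than 2 kb from any transcription start site (TSS). This gave 1535 sites in 1374 genes, or 0.88% of the kept regions. None of these criteria used the genotype.

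The libraries came from 3 wild type samples (WT, strain C57BL/6) and 3 double knockout samples (DKO, genotype Hmgn1-/- and Hmgn2-/-, labelled with the same strain). All were preadipocytes from inguinal white adipose tissue, grown on collagen-coated plates and collected at day 0, before any differentiation medium was added. HMGN1 and HMGN2, the proteins missing from DKO cells, bind nucleosomes without preference for a DNA sequence. The study used young adult male mice, although the labels give neither age nor sex. The labels do not say whether mice were pooled or whether replicates were separate cultures, so p-values measure the spread between these samples only.

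Exons are generally wrapped in nucleosomes more densely than their flanking introns, and coding bases answer to the genetic code as well as to any factor that binds them. Binding sites for transcription factors within coding sequence have been called duons. AP-1, made of FOS and JUN proteins, is a main factor at enhancers of fibroblast-like cells. CTCF is a zinc finger protein that holds chromatin loops.

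Each peak list held 299433 to 299620 lines, the read totals were not analysed here, and a missing line means that a region was under the end of a list, not that it was closed. DKO replicate 3 and WT replicate 2 had the lowest ends, at a −log10 p of 3.54 and 3.63, and WT replicate 3 the highest, at 5.63. At Hmgn2, 2 regions were listed in 3 WT and 0 DKO libraries, with fold enrichment of 7.89, 7.53 and 9.45 in WT replicates 1 to 3 at the taller one. At Hmgn1 the taller region was listed in all 6 libraries, at 12.6 to 20.1 in WT and 14.4 to 16.3 in DKO, and the peak lists do not show which part of the gene was deleted. A region within 1 kb of a TSS was listed in all 6 libraries for 13 of 15 preadipocyte and fibroblast markers, Pdgfra and Col1a1 among them. The same held for 1 of 7 adipocyte, 3 of 5 endothelial, 2 of 7 immune and 0 of 4 epithelial markers. Adipoq, Ptprc, Epcam and Sox10, defining markers of adipocytes, immune cells, epithelium and Schwann cells, had no listed region there in any library, whereas Pecam1 of endothelium was listed at 10.3 to 17.2. Regions at 2 other markers were listed in 3 DKO and 0 WT libraries, Cdh5 of endothelium at 3.91, 7.09 and 4.26 and Itgam of myeloid cells at 4.19, 5.95 and 3.28. The part of other cell types in the results below was not tested.

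The sequences around the sites that carry the comparison between genotypes are shown first. They are 5 of the 6 sites whose fold enrichment passed the test between WT and DKO, each as 121 bases centred on the best summit, read 5′ to 3′ on the strand of the gene (RefSeq, GRCm38.p6). Coding bases are in capitals and intron bases in lower case, so that the splice junctions can be seen.
Ccdc61: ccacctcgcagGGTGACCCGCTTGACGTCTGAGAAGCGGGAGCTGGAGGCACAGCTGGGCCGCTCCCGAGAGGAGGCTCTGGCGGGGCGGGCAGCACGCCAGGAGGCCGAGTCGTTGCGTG
Lgi4: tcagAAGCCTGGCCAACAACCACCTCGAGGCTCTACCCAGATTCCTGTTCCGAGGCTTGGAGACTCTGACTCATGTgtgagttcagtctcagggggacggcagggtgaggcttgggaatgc
Rapgef6: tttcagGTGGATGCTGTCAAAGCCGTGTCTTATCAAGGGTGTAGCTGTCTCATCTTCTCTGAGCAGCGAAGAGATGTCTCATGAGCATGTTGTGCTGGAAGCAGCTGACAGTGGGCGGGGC
Abca6: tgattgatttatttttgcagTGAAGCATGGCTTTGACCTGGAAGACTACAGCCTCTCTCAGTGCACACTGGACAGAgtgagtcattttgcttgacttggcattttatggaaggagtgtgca
Alms1: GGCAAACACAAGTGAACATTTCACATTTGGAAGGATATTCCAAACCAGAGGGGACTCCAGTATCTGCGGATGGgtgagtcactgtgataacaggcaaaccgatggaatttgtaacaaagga
All 5 windows crossed a splice junction, since each summit lay within 54 bp of an exon edge. In Abca6 and Alms1 the letters TGAGTCA, an AP-1 motif, follow directly on the first g of the intron, centred 20 and 17 bp downstream of the summit. In Lgi4 an AP-1 motif, TGACTCA, lies in the exon 9 bp downstream of the summit. None of the 10 motifs searched was found within 100 bp of the summit in Ccdc61 or Rapgef6.

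The next sequences are those of tall sites, shown because they differ in how far the exon reaches. They are given in the same way, and Dst is added as a site with a CTCF motif.
Ash1l: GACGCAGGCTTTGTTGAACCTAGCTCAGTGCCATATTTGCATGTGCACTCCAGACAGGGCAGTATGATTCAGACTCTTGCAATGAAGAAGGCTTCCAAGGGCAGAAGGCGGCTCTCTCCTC
Fry: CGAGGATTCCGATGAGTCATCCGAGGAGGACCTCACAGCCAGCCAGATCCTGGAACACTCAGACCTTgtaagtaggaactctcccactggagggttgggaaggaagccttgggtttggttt
Eng: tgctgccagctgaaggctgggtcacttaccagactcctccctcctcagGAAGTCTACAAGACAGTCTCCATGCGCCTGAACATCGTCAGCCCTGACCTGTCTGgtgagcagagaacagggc
Ankrd55: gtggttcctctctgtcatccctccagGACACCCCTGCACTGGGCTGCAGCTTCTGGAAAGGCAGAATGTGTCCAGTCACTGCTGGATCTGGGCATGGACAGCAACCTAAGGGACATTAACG
Dst: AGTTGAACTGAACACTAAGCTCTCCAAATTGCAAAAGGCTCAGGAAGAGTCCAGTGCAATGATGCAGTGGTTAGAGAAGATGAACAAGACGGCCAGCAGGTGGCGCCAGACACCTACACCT
In Ash1l all 121 bases are coding, as the summit lay 1551 bp from the nearer edge of an exon of 4558 coding bases. In Eng, by contrast, the whole exon of 55 coding bases fits within the window. In Fry the AP-1 motif TGAGTCA is coding and lies 45 bp upstream of the summit. In Dst the CTCF motif is coding and centred 38 bp downstream of the summit.

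Most sites lay in internal coding exons, and last coding exons held more sites than their share of coding bases. The counts were 1090 sites (71%) in internal, 338 (22%) in last, 63 (4.1%) in first and 44 (2.87%) in single coding exons. Coding bases more than 2 kb from a TSS were 77.6% internal, 16.2% last, 3.31% first and 2.94% single. Per Mb of such coding sequence there were 54.6 sites in internal, 81.2 in last, 74 in first and 58.3 in single coding exons. Coding sequence as a whole held 58.5 kept regions per Mb, compared with 78.2 in introns and 85 in exons outside the coding sequence. These densities are descriptions without a test.

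**Figure D1:**
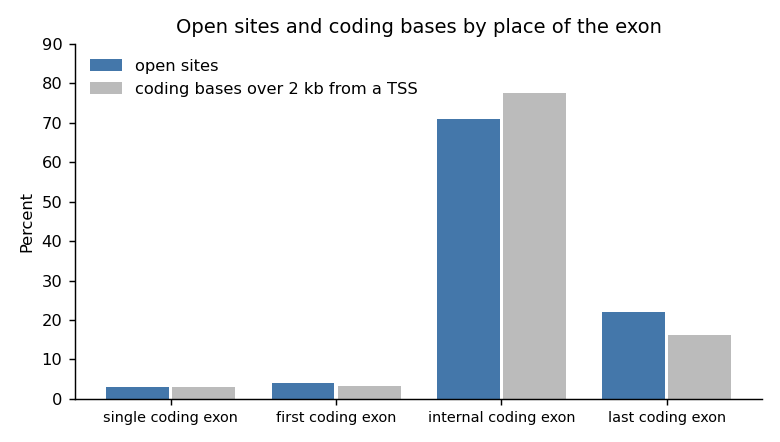
Bars give the percent of the 1535 coding-exon sites (blue) and of the coding bases more than 2 kb from a TSS (grey) in single, first, internal and last coding exons. Last coding exons held 22% of the sites and 16.2% of the bases.

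Most sites reached past the coding part of their exon. The median site lay in an exon of 186 coding bases, with quartiles of 132 and 458.5, and the median coding base in an exon of 176. Exons of 1000 bp or more held 14.3% of the sites and 14.1% of the coding bases. The merged regions had a median width of 340 bp, with a range of 79 to 1541 bp. The median site was 55.3% coding, 285 sites were coding throughout, and 710 (46.3%) spanned the whole coding exon. Summits within 50 bp of an exon edge made up 52.6% of the sites, beside 55.1% of coding bases that close to an edge. The first 25% of the coding sequence held 18% of the sites and 18.9% of the bases, and the last 25% held 32.2% of the sites and 27.9% of the bases.

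A single site was found in 1243 genes, 2 sites in 115 and 3 or more in 16. Col12a1, a collagen associated with fibrils, had the highest number with 8 sites. Syne1, which links the nucleus to actin, had 6, and Dst, a linker between cytoskeletal filaments, had 5. Tex15, a germ cell gene, Tchh, which encodes trichohyalin, Fn1, which encodes fibronectin, and the calcium channel gene Cacna1a had 4 each. A promoter region within 1 kb of a TSS was listed in all 6 libraries for 982 of the 1374 genes with a site (71.5%), and for 12641 of all 20780 autosomal protein-coding genes (60.8%).

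The sites of these genes differed widely in height. Height is given as the fold enrichment at the summit, the ratio of cut sites there to their local level, and as the percentile of the site by −log10 p among the kept regions listed in that library. A mean percentile over 6 libraries counts a missing line as 0. The 8 sites in Col12a1 averaged a percentile of 8.82, and only the one in coding exon 39 of 65 was listed in all 6 libraries. Its fold enrichment was 2.55, 2.53 and 3.18 in WT and 3.7, 3.42 and 3.6 in DKO. The DKO values were all above the WT values, but the change of 0.48 ± 0.17 on the log2 scale (SE, n = 3 per genotype) did not pass (limma adjusted p = 0.178). Fn1 sites were similarly low, with 2.46, 3.08 and 2.88 in WT and 2.8, 3.38 and 2.77 in DKO for the one listed throughout. The 5 sites in Dst averaged a percentile of 59.4, and all 5 were listed in all 6 libraries. In Syne1, the site in coding exon 54 of 145 had a mean percentile of 96.6 and the lowest of the 6 sites 8.03. In Tex15, the coding exon of 7035 bp held 3 sites, and its tallest had 9.6, 7.67 and 9.13 in WT and 6.71, 7.65 and 6.55 in DKO. The sites of 1 gene share an exon or a neighbourhood and are not replicates of each other.

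By rank within each list, coding-exon sites stood at nearly the same height in every library, whereas their fold enrichment varied between libraries. The median percentile of the listed sites was 45.1, 43.7 and 45.3 in the WT lists, and 44.3, 45 and 44.4 in the DKO lists, in the order of their replicate numbers. Introns had medians of 46.1 to 47.4, and regions within 2 kb of a TSS had 61.7 to 64. Median fold enrichment was 5.32, 4.83 and 6.46 in WT and 4.93, 5.1 and 4.59 in DKO for coding-exon sites. WT replicate 3 was highest and DKO replicate 3 lowest for all kept regions as well, at 6.75 and 4.92. A mean percentile above 90 was reached by 55 sites (3.58%), beside 7.68% of all kept regions.

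**Figure D2:**
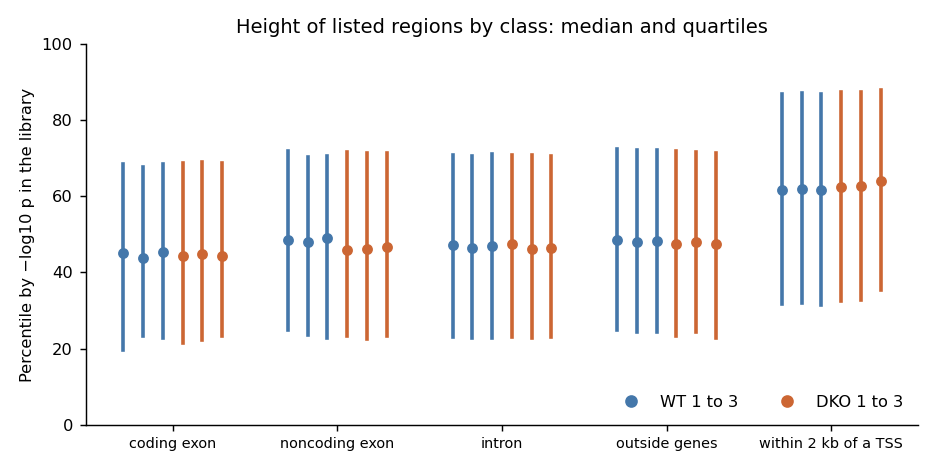
Points show the median and lines the quartiles of the percentile by −log10 p of listed regions in each library (WT blue, DKO orange), for 5 classes of regions. Coding-exon sites lie at medians of 43.7 to 45.3, below regions within 2 kb of a TSS at 61.7 to 64.

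None of the 10 tallest coding-exon sites differed between DKO and WT beyond the threshold of the test described further on. The tallest lay in the last coding exon of 4930564D02Rik (chr3:105077937-105078711), with fold enrichment of 26.1, 24.3 and 29 in WT and 24.4, 23.4 and 25.4 in DKO. In Bad, which encodes a protein that promotes apoptosis, the site in the last coding exon (chr19:6951125-6952665) had 17.1, 15.9 and 17.5 in WT and 16.2, 17 and 17.1 in DKO. WT and DKO overlapped at both sites. In Ash1l, a histone methyltransferase gene, the site in coding exon 2 of 27 (chr3:88983836-88984566) had 21, 18.7 and 22 in WT and 22.5, 23.9 and 20.7 in DKO. Its log2 change of 0.24 ± 0.09 did not pass (limma adjusted p = 0.243). In Fry, which encodes a large protein that associates with microtubules, the site in coding exon 52 of 61 (chr5:150466074-150466721) had 24.2, 24.5 and 31.4 in WT and 25.8, 24.7 and 20.8 in DKO. In Eng, the gene of the TGF-beta co-receptor endoglin, the site in coding exon 13 of 15 (chr2:32679977-32680782) had 18.3, 18.6 and 21.7 in WT and 17.5, 18.6 and 15.2 in DKO. The groups overlapped at these 3 sites too. The other 5 of the 10 tallest were in F12 (coagulation factor XII), Tbc1d31, Eogt (a glycosyltransferase), Epg5 (autophagy) and Ankrd55, with log2 changes from -0.09 to 0.07 and limma adjusted p from 0.778 to 0.994.

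Each library listed 1168 to 1252 of the sites, and 800 (52.1%) were listed in all 6, beside 97204 (55.7%) of all kept regions. The comparison by height used these only, and the 735 others are described by the libraries that list them. The log2 fold enrichment of the highest summit in each region was quantile-normalised over the libraries and compared between genotypes with limma over all 97204 regions, with Benjamini-Hochberg adjustment over all of them and a threshold of 0.05. Among the 800 sites, 2 were lower and 4 higher in DKO. This was 0.25% and 0.5% of the sites. The background was 0.642% lower (624 regions) and 0.293% higher (285 regions) among all regions tested. A summit in the coding exon was listed in all 6 libraries at 646 of the 800, and 154 lacked one in at least 1 library. Of the 800, 4 had no summit in the coding exon in any WT library and 10 had none in any DKO library. Of these only Ccdc61, 1 of the 4 higher sites, passed. At an unadjusted p under 0.05 there were 40 lower and 61 higher sites, 12.6% of the sites and 13.2% of all regions. The median change of the sites was 0.039 on the log2 scale, with quartiles of -0.12 and 0.18, and that of all regions was 0.012. A positive change was found for 448 of the 800 sites (56%) and for 52% of all regions. These shares describe the sites and were not tested against the rest. Fewer cells with an open site and less access per cell cannot be told apart in these samples.

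**Figure D3:**
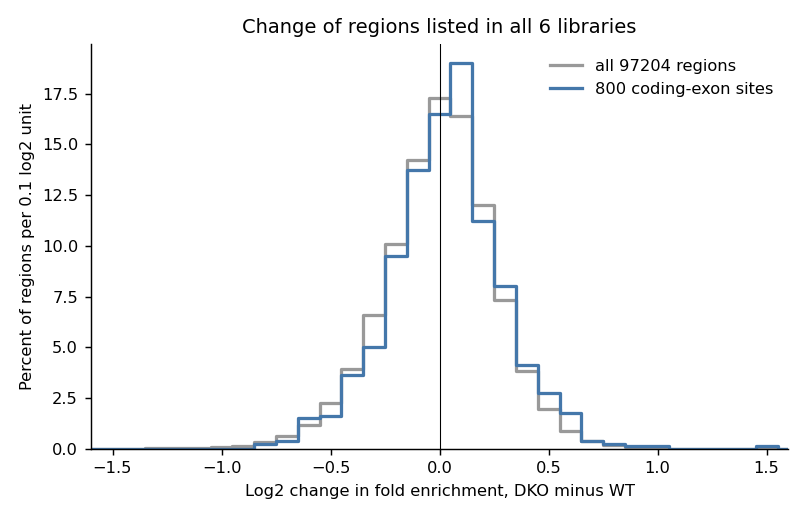
Outlines give the percent of regions in bins of 0.1 log2 unit of the change in quantile-normalised fold enrichment (DKO minus WT), for 800 coding-exon sites (blue) and 97204 regions (grey) listed in all 6 libraries. Both are centred near 0, with medians of 0.039 and 0.012.

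In Lgi4, which encodes a secreted protein needed for myelination by Schwann cells, the site in coding exon 5 of 9 (chr7:31063228-31063664) had fold enrichment of 3.43, 4.04 and 6.24 in WT and 9, 8.2 and 6.76 in DKO. The groups did not overlap, and the log2 change was 1.01 ± 0.22 (SE, limma adjusted p = 0.0158). It passed in 4 of 6 fits, but not without WT replicate 1 or without DKO replicate 1, with a highest adjusted p of 0.112. Sox10, a defining marker of Schwann cells, had no listed region within 1 kb of a TSS in any library. In Chd7, the gene of a chromatin remodeller of the CHD family, the site in coding exon 28 of 37 (chr4:8853832-8854384) had 6.62, 5.75 and 6.75 in WT and 10.5, 9.88 and 9.77 in DKO. The values were tight within each genotype, and the log2 change was 0.84 ± 0.18 (limma adjusted p = 0.0178). It passed in 3 of 6 fits, and not without WT replicate 3, DKO replicate 1 or DKO replicate 3 (up to 0.0977). In Rapgef6, which encodes an exchange factor for Rap GTPases, the site in coding exon 26 of 28 (chr11:54691214-54691582) had 3.21, 3.09 and 4.7 in WT and 6.43, 4.97 and 6.48 in DKO. These values came from 2 summits in the same exon, one within 5 bp of the best summit in WT replicate 3 and DKO replicate 1 and one 173 to 192 bp away in the others. At the latter, which lay 161 to 193 bp away over all 6 libraries, fold enrichment was 3.21, 3.09 and 4.11 in WT and 4.75, 4.97 and 6.48 in DKO. The log2 change of the region was 0.88 ± 0.21 (limma adjusted p = 0.0373), and of the 6 fits only the one without DKO replicate 2 passed (up to 0.173 otherwise).

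In Ccdc61, which encodes a protein of centrioles and basal bodies, the region that passed (chr7:18893613-18894169, minus strand) was not compared at one position. In the 3 DKO libraries its highest summit lay in coding exon 5 of 13, at 9.99, 11 and 7.35. In WT replicates 1, 2 and 3 the only listed summits lay 339, 329 and 310 bp away and outside the exon, at 3.67, 2.82 and 4.57, so that the region counted as a coding-exon site through DKO alone. The log2 change of the whole region, 1.53 ± 0.21 (SE, limma adjusted p = 0.000111; by rank, adjusted p = 0.000136), therefore sets exon summits in DKO against summits outside the exon in WT and is no measurement of a change in the exon. The DKO libraries also listed a summit on the WT side, 297 to 304 bp away, at 7.38, 6.99 and 6.84, and these lie above the 3 WT values. With summits required within 250 bp of the best one, the site was listed in 3 DKO and 0 WT libraries and could not be fitted.

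Both sites lower in DKO had an AP-1 motif at the splice donor, a feature picked after the values were seen. Lgi4, which was higher in DKO, had an AP-1 motif in the exon. In Abca6, an ABC transporter gene, the site in coding exon 37 of 38 (chr11:110176902-110177441, minus strand) had 13.3, 12.5 and 15 in WT and 9.51, 8.22 and 4.59 in DKO. DKO replicate 3 was the lowest of all, and the summit of WT replicate 2 lay 16 bp from the best summit, outside the exon. The log2 change was -0.76 ± 0.19 (limma adjusted p = 0.0398), and without DKO replicate 3 it was -0.48 and did not pass. It also missed the threshold without WT replicate 1, 2 or 3 in turn (up to 0.22 over the 6 fits). In Alms1, a centrosome and basal body gene mutated in Alström syndrome, the site in coding exon 10 of 23 (chr6:85629460-85629972) had 8.47, 12.8 and 14.1 in WT and 5.03, 6.24 and 6.23 in DKO. The groups did not overlap, and the log2 change was -0.80 ± 0.20 (limma adjusted p = 0.0446). Of the 6 fits it passed without WT replicate 1 and without DKO replicate 3 only (up to 0.218 otherwise). The next site by p, in the anoctamin gene Ano3, had 23.7, 19.5 and 23.6 in WT and 18.4, 17.6 and 8.85 in DKO. Its log2 change of -0.50 ± 0.15 did not pass (limma adjusted p = 0.0899). Without DKO replicate 3 the change in Ano3 was -0.22. It passed without DKO replicate 1, without DKO replicate 2 and with the replicate block. Within 500 kb of the 6 sites that passed, other tested regions lower and higher in DKO numbered 1 and 2 of 74 at Ccdc61, 0 and 1 of 49 at Lgi4 and 3 and 0 of 86 at Rapgef6. They numbered 2 and 0 of 58 at Abca6, and 0 and 0 at Chd7 (55) and Alms1 (66).

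**Figure D4:**
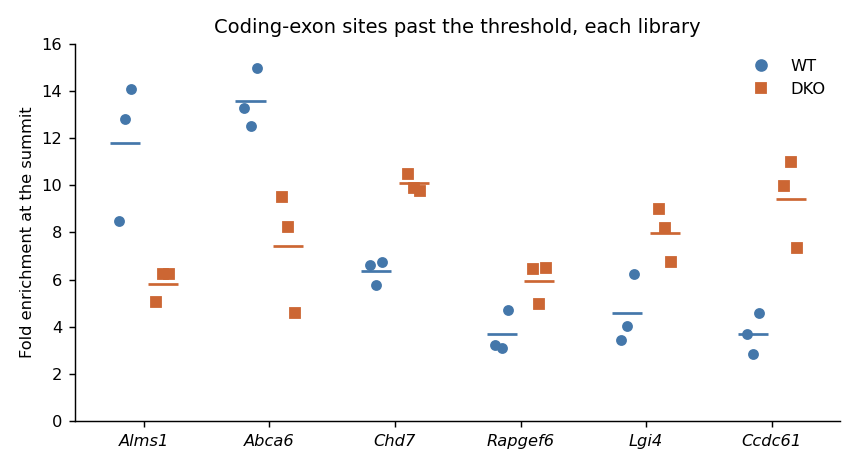
Points give the fold enrichment at the summit in each WT (blue circles) and DKO (orange squares) library for the 6 sites past the threshold, and lines give the means of 3 libraries. For Ccdc61 the WT summits lie outside the coding exon, and for Abca6 that of WT replicate 2 does. For Rapgef6 the values come from 2 summits in the exon. No WT and DKO values overlap at any of the 6, which adds no support because the sites were chosen by these values. In Lgi4 the lowest DKO value is 6.76 against a highest WT value of 6.24.

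Ranks of −log10 p, which remove differences in depth that act on all regions alike, called the same 4 regions higher and neither of the 2 lower ones. Of the 800 sites, 0 were lower and 5 higher in DKO (35 and 73 at an unadjusted p under 0.05), where the background was 0.497% lower and 0.552% higher. The 5 were Ccdc61, Lgi4, Chd7, Rapgef6 and Kank3, a gene with ankyrin repeats and a KN motif, and 4 of them had passed by fold enrichment. By rank, Abca6 and Alms1 had adjusted p of 0.0671 and 0.0799 (limma). In coding exon 2 of 10 of Kank3 (chr17:33817150-33818009) fold enrichment was 7.66, 5.87 and 8.39 in WT and 8.71, 10 and 9.32 in DKO. Its rank adjusted p was 0.0405 and its fold enrichment adjusted p 0.134 (limma). By rank it passed in none of the 6 fits without 1 library (limma adjusted p 0.0684 to 0.146) and had 0.179 without the mean-variance trend. Before scaling, the libraries of the 2 genotypes did not overlap in fold enrichment at 82 sites lower (10.2%) and 18 higher (2.25%) in DKO, beside 14.6% and 2.02% of all regions. Fold enrichment was lower overall in the DKO lists before scaling, with a median log2 difference of -0.151 for all regions and -0.123 for the sites. Without scaling, 0 sites were lower and 1 higher in DKO, and without the mean-variance trend 0 and 2. The 1 was Ccdc61, whose WT and DKO summits lay at different places, and the 2 were Ccdc61 and Chd7.

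Of the 735 sites missing from 1 or more lists, 29 were listed in 3 DKO and 0 WT libraries (1.89% of the 1535, background 1.19%), and 18 in 3 WT and 0 DKO libraries (1.17%, background 1.28%). More DKO than WT libraries listed 293 sites (19.1%), and more WT than DKO libraries listed 228 (14.9%), beside 14.6% and 18.4% of all kept regions. By the highest −log10 p in any library, the leading sites listed in WT only were in Armh3, Tmprss11d, a serine protease gene, and Zbtb25, a zinc finger gene. Armh3 had 6.13, 4.84 and 9.1, Tmprss11d 4.38, 3.7 and 7.04 and Zbtb25 3.5, 3.13 and 7.34. In each of them WT replicate 3 was the highest. By the same measure, those listed in DKO only were in Cenpq, a centromere gene, Iscu, the scaffold for iron-sulphur clusters, and Nfkb1, a subunit of NF-kappaB. Cenpq had 3.35, 6.8 and 5.9, Iscu 4.35, 4.98 and 3.58 and Nfkb1 3.31, 4.95 and 3.37. Where listed, the percentiles of these 6 sites ran from 5.44 to 57.6. With a −log10 q above 5 required, 2 of 1010 sites were listed in DKO only (0.198%, background 0.407%) and 7 in WT only (0.693%, background 0.784%). Among the 50000 best lines of each list, 1 of the 1535 was listed in DKO only (0.0651%, background 0.193%) and 3 in WT only (0.195%, background 0.308%).

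**Figure D5:**
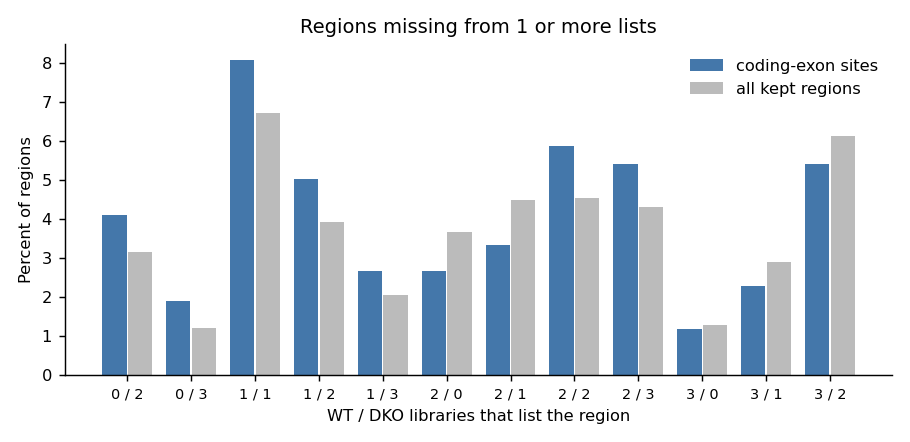
Bars give the percent of the 1535 coding-exon sites (blue) and of the 174449 kept regions (grey) by how many WT and DKO libraries listed them, for regions missing from at least 1 list. Sites listed in 0 WT and 3 DKO libraries made up 1.89%, beside 1.19% of all kept regions.

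By sequence, coding-exon sites were richer in G and C than introns, held fewer AP-1 motifs than introns and more CTCF motifs. The median GC content within 100 bp of the summit was 53.2%, compared with 46.8% in introns and 54.7% within 2 kb of a TSS. An AP-1 motif (TGAGTCA or TGACTCA, both strands) was found in 280 sites (18.2%), 26.5% of introns and 23.9% of all kept regions. The CTCF consensus was found in 89 sites (5.8%), 3.01% of introns and 3.09% of all kept regions. Regions in exons outside the coding sequence were close in CTCF, at 5.31%, with AP-1 in 23% and a median GC content of 48.8%. TEAD (GGAATG) was found in 13.9%, NFI (TTGGCA) in 15.2%, RUNX (TGTGGT) in 16% and C/EBP (TTGCNNAA) in 9.9% of sites, beside 16.3%, 13.1%, 19% and 12.1% of all kept regions. ETS (CCGGAAGT) and NRF1 (GCATGCGC) were each found in 0.717%, SP/KLF (GGGGCGGGG) in 1.3% and EBF (TCCCNNGGG) in 4.04%, beside 0.706%, 0.588%, 2% and 3.91%. Motif letters in a window are no proof of binding.

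Compared with other coding exons, those with a site held more AP-1 and CTCF motifs. Within 100 bp of the middle of the exon, AP-1 was found in 12.8% of the 1434 exons of the principal transcripts that held a site and in 2.54% of the 147470 that touched no kept region. CTCF was found in 4.53% and 0.0868%. TEAD differed less, at 13.1% and 10.4%, and RUNX was at 15.2% and 14.3%. The median GC content was 53.2% and 49.8%, and the median coding length 180.5 and 126 bp. As in Abca6 and Alms1, AP-1 letters can overlap the donor that starts an intron. The donor read gTGAGTCA in 40 of 1082 exons with a site and a GT donor (3.7%) and in 647 of 130383 without a kept region (0.496%). Hspg2, Col1a2 and Kdm4c were among the 40. Sites with a CTCF motif had a median mean percentile of 55.1, those with an AP-1 motif 31, and all sites 29. Of the 150 sites with an AP-1 motif that were tested, 2 were lower and 1 higher in DKO, and of the 65 with a CTCF motif, 0 and 0, beside 0.642% and 0.293% of all regions tested. Counts this small show no difference from that background.

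The change between genotypes moved with GC content among all regions as among coding-exon sites. Under 45% GC the median log2 change was -0.069 for 111 sites and -0.057 for 30151 regions. From 60% GC it was 0.133 for 188 sites and 0.101 for 11323 regions. Of the sites, 174 in last coding exons had a median of 0.074 and 574 in internal coding exons 0.025, with a median GC content of 57.2% and 51.7% over all sites of those 2 kinds. The part of GC content in the single changes above was not tested.

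Gene groups were described from lists of symbols, with counts of genes not corrected for coding length. Extracellular matrix genes had a site in 30 of 136 genes (22.1%), cytoskeletal genes and their linkers in 22 of 131 (16.8%), chromatin regulators in 25 of 186 (13.4%) and genes of insulin, IGF and TGF-beta signalling in 5 of 42 (11.9%). All autosomal protein-coding genes stood at 6.61%, adipogenic transcription factors at 4 of 61 (6.56%), zinc finger genes at 25 of 502 (4.98%) and cadherins and protocadherins at 3 of 98 (3.06%). Of the 75 tested sites in these lists, 0 were lower and 1 higher in DKO, beside 0.642% and 0.293% of all regions tested. The 1 site was that of Chd7, among the chromatin regulators. Medians of the log2 change were 0.08 for extracellular matrix, 0.04 for the cytoskeleton, 0.10 for chromatin regulators, 0.08 for zinc finger genes, 0.12 for signalling genes and 0.24 for the 2 cadherin sites tested, beside 0.04 for all sites.

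The 49 sites in matrix genes had a median mean percentile of 21.8, and the 3 tallest were in Hspg2, Mmp14 and Mmp9. In Hspg2, which encodes perlecan, the site in coding exon 2 of 97 had 14.1, 11.9 and 14.8 in WT and 11.9, 16.1 and 15.9 in DKO. In Mmp14, a membrane-bound matrix metalloproteinase gene, the last coding exon had 13, 12.7 and 12.2 in WT and 10.4, 11.3 and 11.1 in DKO. Its DKO values were all lower before scaling, but the scaled log2 change was -0.03 ± 0.15. In Mmp9, a gelatinase gene, coding exon 11 of 13 had 17, 15.9 and 21.6 in WT and 16.4, 11.8 and 14.8 in DKO. None of these passed (limma adjusted p of 0.426, 0.964 and 0.507).

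In adipogenic transcription factor genes, 5 sites were found and none was listed in all 6 libraries. In Fosl2, an AP-1 subunit, the last coding exon was listed at 3.12 and 2.19 in WT replicates 1 and 2 and at 2.96, 3.65 and 3.25 in DKO. In Tead1, which encodes a TEAD factor, coding exon 4 of 13 was listed in DKO replicates 1 and 2 only, at 3.79 and 4.09. In Klf6, coding exon 2 of 4 was listed in WT replicates 1 and 2 only, at 2.07 and 2.72. Where listed, their percentiles ran from 1.96 to 52.8 in Fosl2, were 25.1 and 28.2 in Tead1, and were 9.17 and 42.1 in Klf6.

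Among chromatin regulators, Trrap, which encodes a scaffold of histone acetyltransferase complexes, had 20.4, 17.5 and 20.9 in WT and 16, 19.5 and 18.5 in DKO in coding exon 65 of 70. Brdt, a testis bromodomain gene, had 18.7, 15.9 and 19.1 in WT and 14.8, 15.9 and 14.8 in DKO at coding exon 10 of 17, where 1 WT and 0 DKO libraries had a summit inside the exon. Among zinc finger genes, Prdm2 had 22.5, 18.9 and 20.3 in WT and 18.6, 20.7 and 19 in DKO. Zfp462 had 16.5, 12.2 and 19.1 in WT and 13.7, 17.6 and 13.6 in DKO. The groups overlapped or touched at all 4. In Zfp385a the DKO values of 11, 9.51 and 8.61 exceeded the WT values of 7.39, 8.22 and 8.41, and the log2 change of 0.47 ± 0.18 did not pass (limma adjusted p = 0.231).

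In the list of insulin, IGF and TGF-beta signalling genes, 0 of 3 tested sites passed. Bmpr1b, a BMP receptor gene, had 18.2, 15.7 and 23 in WT and 18.9, 22 and 15.7 in DKO in coding exon 5 of 10. Tgfbr2, a TGF-beta receptor gene, had 9.84, 9.84 and 13.5 in WT and 9.52, 11 and 7.48 in DKO in coding exon 5 of 7. Pik3ca, the catalytic subunit of a phosphoinositide kinase, had 5.26, 3.98 and 5.28 in WT and 4.47, 4.53 and 5.57 in DKO. The groups overlapped at all 3. Of the cadherin genes, Cdh22 had 7.28, 7.49 and 14 in WT and 8.95, 11 and 9.17 in DKO, Cdh20 had 3.8, 3.7 and 4.11 in WT and 4.19, 4.53 and 3.6 in DKO, and Dchs2 was missing from 1 DKO list.

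The limits of the definition fell among ordinary values. The sites just beyond 2 kb from a TSS were in Tbx21 (2007 bp), Armc5 (2015 bp) and Hif1a (2018 bp). Their fold enrichment ranged from 3.18 to 6.75, from 2.75 to 4.97 and from 11.6 to 17.1 over the libraries. Just short of the limit were coding summits in Def6 (2000 bp), Rfx1 (1998 bp) and Chpf (1991 bp), at 7.49 to 9.87, 2.95 to 7.93 and 2.96 to 6.24. With the comprehensive GENCODE M21 annotation, an alternative chosen after seeing the data, 1152 sites met the definition and 1133 of them were among the 1535.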

How the data were processed

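ATAC-seq peak lists of day 0 preadipocytes were used for 3 WT and 3 DKO samples, grouped by their titles. Per the study's methods and the submitters' processing notes, the authors trimmed reads with cutadapt 1.18, aligned them to mm10 with Bowtie2 2.3.4.3, removed duplicates and mitochondrial reads and called peaks with MACS2 (version not given in the sources used here) in each library separately. The names of the deposited lists give a limit on lines and a p limit, whereas the study's methods give default settings. In the deposited lists, fold enrichment is the ratio of cut sites at the summit to their local level. The authors gave p and q as −log10 values, and these rise with depth. Depth in reads was not analysed here, so no counting interval could be given.

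The lists were merged with Python, and each region took the highest fold enrichment and −log10 p among its lines in a library. Regions listed in all 6 libraries were fitted with limma 3.58.1 (R 4.3.3; lmFit, eBayes with trend, two-sided, Benjamini-Hochberg adjustment), and the fit was tested on simulated data. Ranks were turned into normal scores. Coding exons, transcripts and TSS came from GENCODE M21, and 10 motifs were searched within 100 bp of the summit in RefSeq GRCm38.p6. The named sites are the 10 with the best mean percentile, up to 6 per direction past an adjusted p of 0.05 (or the 3 with the smallest p), up to 3 per direction listed in 1 genotype only, up to 3 per gene list, and the 6 genes with the most sites. Kank3, the summits behind the called sites, the genes at the 2 kb limit and the donor motif were chosen after their values were seen. The sites and lists were chosen with earlier results of these data known. Other scalings, other definitions, a replicate block and fits without each library were tried. The sequence of 1 of the 6 sites past the threshold and the values of some marker genes are not reported here.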

Additional observations from a re-analysis of the deposited data

How the results depend on the processing

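With a −log10 q above 5 required, 1010 sites met the definition, of which 7 were listed in 3 WT and 0 DKO and 2 in 3 DKO and 0 WT libraries. Among the 50000 best lines of each list these were 3 and 1. The other definitions gave 1152 to 1787 sites. By fold enrichment, sites lower and higher in DKO numbered 0 and 1 without scaling (all regions 136 and 14), 0 and 1 with missing lines filled (79 and 50) and 0 and 2 without the mean-variance trend (144 and 76). Ccdc61 was the 1 higher site without scaling and with missing lines filled, and Ccdc61 and Chd7 were the 2 without the trend. With median centring 519 of all regions were higher. By rank without the trend, 0 sites were higher, and 0 of all regions lower and 0 higher. The unadjusted p was under 0.05 there for 101 sites and 11445 regions.

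Leaving out each library in turn, 0 to 2 sites were lower and 1 to 4 higher by fold enrichment (all regions 163 to 582 and 113 to 295), and 0 to 2 lower and 2 to 6 higher by rank (153 to 350 and 185 to 692). These fits keep 2 libraries in 1 genotype. Sites listed in WT only then numbered 26 to 33, and in DKO only 38 to 57, where fewer lists have to be matched. The median change of the sites minus that of all regions was 0.013 to 0.048 over all alternatives and 0.027 as reported. Same-numbered replicates did not deviate together over the regions listed in all 6 libraries (correlations of 0.0056, -0.037 and -0.053). The labels do not say whether they share more than a number. With the replicate block, 3 sites were lower and 4 higher by fold enrichment (all regions 766 and 359), and 2 lower and 7 higher by rank (580 and 653).

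Of 570 values of the 44 named sites that were tested, 496 kept their direction and call, 32 lost the call, 3 gained it, all in Ano3, and 39 changed sign. The 39 belonged to 21 sites, none of them called. Every fit of Ccdc61 set DKO summits in the exon against WT summits outside it, so these fits do not bear on the exon. Within 250 bp of the summit, 2 sites were lower and 3 higher. Without scaling, log2 changes turned to -0.01 in Bad, -0.03 in F12, -0.08 in Eogt, -0.11 in Epg5, -0.07 in Ankrd55, -0.12 in Trrap, -0.01 in Syne1 (coding exon 46), -0.08 in Prdm2, -0.07 in Zfp462, -0.00 in Bmpr1b, -0.03 in Dst (coding exon 53) and -0.09 in Tchh. With median centring they turned to 0.08 in 4930564D02Rik, 0.03 in Fry, 0.01 in Tbc1d31, 0.01 in Eng and 0.00 in Dst (coding exon 56), and within 250 bp of the summit to -0.02 in Zfp462. The cause of these changes was not tested.

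Without single libraries the log2 change ranged from -0.08 to 0.02 in 4930564D02Rik, -0.17 to 0.02 in Tbc1d31, -0.02 to 0.13 in Eogt, -0.05 to 0.09 in Epg5, -0.11 to 0.00 in Eng, -0.05 to 0.09 in Trrap, -0.17 to 0.09 in Mmp14, -0.06 to 0.11 in Prdm2, -0.02 to 0.14 in Zfp462 and -0.15 to 0.04 in Tgfbr2. It ranged from -0.16 to 0.14 in Syne1 (coding exon 124), and in Dst from -0.48 to 0.01 (coding exon 23) and -0.29 to 0.08 (coding exon 56).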
